A study of Mus musculus with 4 samples.

Results

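The Nxf and Nxt genes encode the export receptors that carry messenger RNA through the nuclear pore. The members were the rows of the expression table named Nxf1, Nxf2, Nxf3, Nxf7, Nxt1 and Nxt2, which are 6 of its 23420 gene symbols. The family was selected on the measured rise of Nxf2 and Nxt2 from Ctrl to AZ20, so the changes of the members are given as descriptions with no p-value. A mean above 1 TPM (reads per transcript length, scaled to the same total in each library) in at least 1 condition was reached by 5 of the 6 members and by 10316 genes in all. Nxf7 did not reach it.

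RNA-seq was performed on pachytene spermatocytes, which are germ cells in the long middle stage of meiotic prophase I. The cells were sorted from the testes of wild-type C57BL/6 mice aged 23 weeks and cultured for 24 h with DMSO (Ctrl, 2 libraries) or with 10 µM AZ20, an inhibitor of the DNA damage response kinase ATR (2 libraries). The comparison addressed what ATR activity does for the silence of the sex chromosomes once that silence is in place. Both groups went through the same sort and culture, and each mouse gave cells to DMSO as well as to AZ20. Each library is thus a sorted population kept outside the testis, and 2 libraries a group set the precision.

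In the cell, an NXF protein pairs with a small NXT protein, and the pair binds mature messenger ribonucleoproteins handed over by adaptors such as the TREX complex and SR proteins, then moves through the pore along phenylalanine-glycine repeats of nucleoporins. NXF1 with NXT1 (also called p15) is the receptor used by most messengers in every cell, while the paralogues NXF2, NXF3 and NXF7 are mostly found in the germ line or the nervous system. In pachytene spermatocytes the X and Y chromosomes lie in the XY body, and their genes are shut off by meiotic sex chromosome inactivation (MSCI), in which ATR signaling takes part. Nxf1 lies on chromosome 19 and Nxt1 on chromosome 2, whereas Nxf2, Nxf3, Nxf7 and Nxt2 all lie on the X chromosome.

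At least 12706432 and 14448787 reads on genes lay behind the Ctrl libraries, and at least 18509239 and 16832093 behind the AZ20 libraries. These reads were recovered from the TPM values as the fewest whole reads that fit, so they are lower limits, and the AZ20 libraries were the deeper ones. All 10 pachytene markers listed for the cell type check were above 0 and none was called, and their summed TPM ran from 12260 to 12469 over the 4 libraries. Sertoli cell markers summed to at most 0.48 TPM in any library, Leydig cell markers to 2.31, macrophage markers to 1.34 and peritubular myoid markers to 4.6 TPM. Spermatogonial markers summed to 8.26 and 21.2 TPM in Ctrl and to 13.5 and 14.9 TPM in AZ20. No marker of these cell types was called. Round spermatid markers summed to 365 and 149 TPM in Ctrl and to 771 and 251 TPM in AZ20, so the groups overlapped while AZ20 was higher in both pairs, and none of the 6 markers was called. Their part in the results that follow was not tested. In bulk samples, fewer cells of a type and less RNA per cell cannot be told apart.

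Promoter sequences are shown for the 2 members that rose most, so that the letters upstream of both start sites can be read beside the values. Each run covers the 250 bases that precede the first RefSeq start (assembly GRCm38.p6), read 5′ to 3′ on the strand of the gene. For Nxf2 (chrX:134964755-134965004, minus strand) capitals mark CACGTG, the E-box letters bound by basic helix-loop-helix factors such as USF and MYC. For Nxt2 (chrX:142227687-142227936, plus strand) capitals mark a CCAAT box, the letters bound by NF-Y, which here lies on the other strand and so reads ATTGG.
Nxf2: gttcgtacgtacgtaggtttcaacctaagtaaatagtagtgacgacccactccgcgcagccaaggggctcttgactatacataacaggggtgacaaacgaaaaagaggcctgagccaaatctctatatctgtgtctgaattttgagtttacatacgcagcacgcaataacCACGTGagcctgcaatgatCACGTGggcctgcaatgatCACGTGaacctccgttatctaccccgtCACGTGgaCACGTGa
Nxt2: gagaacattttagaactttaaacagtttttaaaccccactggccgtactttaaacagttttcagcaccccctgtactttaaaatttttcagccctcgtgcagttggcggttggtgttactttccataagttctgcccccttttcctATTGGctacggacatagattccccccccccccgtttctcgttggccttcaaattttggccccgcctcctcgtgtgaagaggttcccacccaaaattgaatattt

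The Nxf2 promoter held 5 E-boxes. They began 80, 61, 42, 15 and 7 bases before the start, and the distances from one to the next were 19, 19, 27 and 8 bases. E-boxes were searched for after this sequence had been read, and CACGTG is the same on both strands. Of 27025 mouse promoters of the same length, 6.05% held CACGTG at least once and 5 (0.0185%) held it at least 4 times, with 5 copies as the most in any of them. The other promoters with 4 or more copies belonged to Mfsd1, Lamp1, Cdk4 and Gm40008, of which the last is not in the expression table. AZ20 minus Ctrl was -0.10 for Mfsd1, a lysosomal transporter, -0.28 for Lamp1, a lysosomal membrane protein, and 0.44 for Cdk4, a kinase of the cell cycle, on the log2(TPM + 1) scale, and none of these was called.

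Among 266 X-linked genes above the filter with a promoter in the RefSeq table, 11 of the 17 with an E-box were called higher (64.7%), as were 174 of the 249 without one (69.9%). The median change was 4.20 with an E-box and 2.74 without one, so the called share and the median pointed in different directions. Nxf2, whose sequence prompted the search, is among the 17 and the 11. Over all genes above the filter with a promoter, 1.68% of 655 with an E-box were called higher, against 2.66% of 6983 without one. The medians there were 0.06 and 0.08. None of these differences was tested. The E-box letters were absent from the Nxt2, Nxf1, Nxt1 and Nxf7 windows, and the table had no entry for Nxf3. The Nxt2 window lies inside the span of the gene in GENCODE, where a longer transcript starts upstream, but outside its exons. The Nxf1 window had 30 CpG and 71.2% G+C, with the GC box letters GGGCGG 3 times, counted on both strands. Nxf2 had 16 CpG and 48.8% G+C, Nxt2 had 8 and 46%, Nxt1 had 12 and 54.4%, and Nxf7 had 2 CpG, against a median over all promoters of 6 CpG and 52%. Like the Nxt2 window, the Nxt1 window held 1 copy of the CCAAT letters, and it held 1 copy of the GC box letters. The GC box letters occurred in 32.9% of all promoters and the CCAAT letters in 34.5%. A match to such letters is a description of the DNA and not a site of binding.

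Nxf1, the general receptor, is a gene of 21 exons at chr19:8757073-8770922 (GRCm38, plus strand). Its level was 105 and 120 TPM in the Ctrl libraries and 99.6 and 97.6 TPM in the AZ20 libraries. Both AZ20 libraries were below both Ctrl libraries, by a small margin. The means were 113 ± 10.8 TPM in Ctrl and 98.6 ± 1.45 TPM in AZ20 (SD, n = 2 each), a ratio of 0.874. On the log2(TPM + 1) scale AZ20 minus Ctrl was -0.19 with a standard error of 0.17 and a 95% interval from -0.60 to 0.22, which holds 0.

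Nxt1, the general partner, has 3 exons and lies at chr2:148672601-148676027 on the plus strand. It was at 378 and 453 TPM in Ctrl and at 448 and 396 TPM in AZ20, so the groups overlapped. The means were 415 ± 52.7 TPM and 422 ± 36.4 TPM (SD, n = 2 each). AZ20 minus Ctrl was 0.03 ± 0.16 (SE) on the log2(TPM + 1) scale, with a 95% interval from -0.36 to 0.41, and its sign turned with the setting, from -0.10 without the first Ctrl library to 0.16 without the second.

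Nxf2, a testis-enriched paralogue of Nxf1, has 22 exons at chrX:134944526-134964754 (minus strand). Its level was 2.17 and 1.54 TPM in Ctrl, from 52 and 42 reads. With AZ20 it was 802 and 723 TPM, from 27661 and 22517 reads. The AZ20 libraries stood far above the Ctrl libraries, with 1.85 ± 0.451 TPM against 763 ± 55.6 TPM (SD, n = 2 each), a ratio of 411. AZ20 minus Ctrl was 8.07 ± 0.21 (SE) on the log2(TPM + 1) scale, with a 95% interval from 7.58 to 8.56, and 7.98 and 8.16 in the pairs of libraries with the same number.

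Nxt2, the X-linked paralogue of Nxt1, has 5 exons at chrX:142226770-142239692 (plus strand). The Ctrl libraries were at 0.0779 and 1.57 TPM, from 2 and 46 reads, and the AZ20 libraries at 193 and 228 TPM, from 7154 and 7608 reads. The groups lay far apart, and within Ctrl the first library was much lower than the second. The mean rose from 0.822 ± 1.05 TPM to 211 ± 24.4 TPM (SD, n = 2 each), a ratio of 256 that rests on the second Ctrl library. AZ20 minus Ctrl was 6.99 ± 0.40 (SE) on the log2(TPM + 1) scale, with a 95% interval from 6.04 to 7.94, and 7.49 and 6.48 in the pairs.

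Nxf3, which in humans leaves the nucleus by way of the exportin XPO1, has 19 exons at chrX:136072099-136085255 (minus strand). No read was found in either Ctrl library, and AZ20 had 1.78 and 1.51 TPM, from 77 and 59 reads. With 3 reads set as the limit in each Ctrl library, its level was at least 17.6-fold higher in AZ20. The change was 1.40 ± 0.33 (SE) on the log2(TPM + 1) scale, but it was 4.12 and 7.37 with pseudocounts of 0.1 and 0.01 and 6.71 with voom on the recovered reads, since there were no Ctrl reads. Nxf3 was not called in the main fit, which took the libraries as independent. It was called, with the libraries still independent, when the variance trend on intensity was left out and with voom. Blocking the libraries by replicate number also gave a call. Even in AZ20 its level was a small part of that of Nxf2.

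Nxf7, a paralogue whose protein in mouse is found in cytoplasmic granules, has 22 exons at chrX:135579555-135598777 (minus strand). It was at 0 in both Ctrl libraries and in the second AZ20 library, and at 0.295 TPM, from 8 reads, in the first AZ20 library. It stayed below the filter on low values, so no change was fitted.

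**Figure D1:**
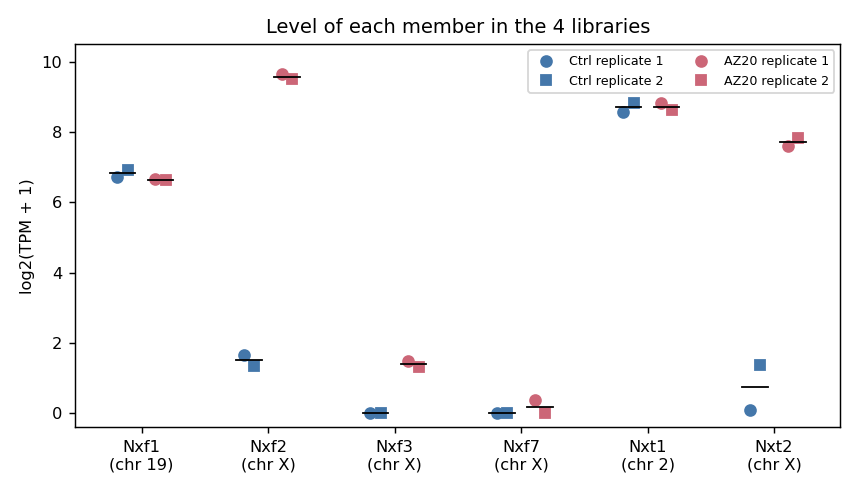
Level of the 6 members in the 4 libraries, as log2(TPM + 1), with the chromosome under each name. Circles are replicate 1, squares replicate 2, blue Ctrl and red AZ20, and each line is the mean of the plotted values of a group; Nxf2 goes from 2.17 and 1.54 TPM to 802 and 723 TPM while Nxf1 and Nxt1 stay within 1 log2 unit.

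Calls needed a change of 2-fold or more on the log2(TPM + 1) scale together with a limma p, adjusted by Benjamini-Hochberg, under 0.05. Of the 5 members above the filter, Nxf2 and Nxt2 were called higher and none was called lower, beside 2.28% of all genes tested called higher and 0.0485% lower. Because the choice of the members used this contrast, nothing is read from that count. All 3 X-linked members above the filter had a positive change, as did 333 of the 341 X-linked genes tested. Of the 3 members 2 were called, beside 63.3% of the 341. The calls of Nxf2 and Nxt2 were lost without either AZ20 library, where no gene at all was called, although with any 1 library left out the change of Nxf2 lay between 7.91 and 8.23 and that of Nxt2 between 6.36 and 7.61. They were called without either Ctrl library.

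The family was selected on the rise of Nxf2 and Nxt2, so their ranks on the X chromosome are given as descriptions. Set against the other X-linked genes, Nxf2 stood out in level. It had the highest mean TPM in AZ20 of the 1033 X-linked genes in the table, after rank 29 in Ctrl. Nxf2 took 8.4% and 7.82% of all X-linked TPM in the AZ20 libraries, against 0.6% and 0.524% in Ctrl. By change on the log2(TPM + 1) scale it came first of the 341 X-linked genes tested, ahead of Gm9 (7.53), Vbp1 (7.41), a prefoldin subunit, 4930550L24Rik (7.03) and then Nxt2 (6.99). The rank by change of Nxf2 was 6 with a pseudocount of 0.1, 77 with 0.01, 41 with voom and 32 with voom and the replicate block, where genes with few or no Ctrl reads such as Cetn2 came ahead of it, and 2 without the second Ctrl library. Nxt2 went from rank 62 to rank 10 by level on the X chromosome and took 2.03% and 2.46% of X-linked TPM in AZ20. Nxf3 stood at rank 263 of the 341 by change on this scale and at rank 161 with a pseudocount of 0.01.

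Within Ctrl the order of levels was Nxt1, Nxf1, Nxf2, Nxt2, and then Nxf3 and Nxf7 at 0. The ranges of Nxf2 and Nxt2 overlapped there, since the lower Nxf2 library (1.54 TPM) was under the higher Nxt2 library (1.57 TPM), and the other neighbours in this order with any reads did not overlap. Within AZ20 the order was Nxf2, Nxt1, Nxt2, Nxf1, Nxf3 and Nxf7, and no neighbours overlapped. The germline paralogue therefore stood above the general receptor in AZ20, with 8.05 and 7.42 times the TPM of Nxf1, after 0.0207 and 0.0127 times in Ctrl.

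The partners did not move in proportion. Summed over the family, Nxf TPM was 107 and 122 in Ctrl and 904 and 822 in AZ20, a ratio of 7.53 between the group means. Summed Nxt TPM was 378 and 454 in Ctrl and 641 and 624 in AZ20, a ratio of 1.52. Each library of AZ20 was above each of Ctrl in both sums. These sums carry the rise of Nxf2 and Nxt2 that the family was selected on, so they are given as descriptions. An exact permutation test over the 4 libraries cannot give a p below 0.333, so it decides nothing here.

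Nxf2 made up 2.03% and 1.26% of Nxf TPM in Ctrl and 88.7% and 88% in AZ20. Nxt2 made up 0.0206% and 0.345% of Nxt TPM in Ctrl and 30.2% and 36.5% in AZ20, so that Nxt1 remained the main Nxt transcript. The Nxf sum was 0.284 and 0.269 times the Nxt sum in Ctrl, and 1.41 and 1.32 times in AZ20. The summed levels hence passed from an excess of the small partner to an excess of the receptor. These are transcript levels and say nothing of the amount of protein.

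**Figure D2:**
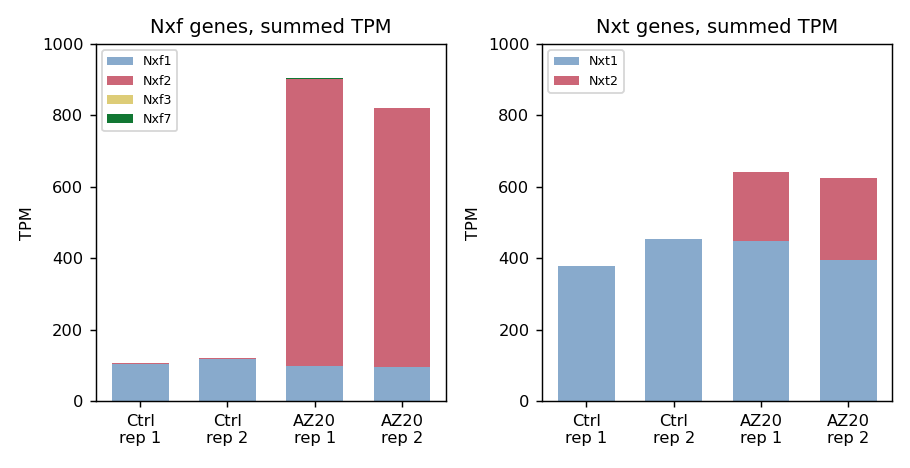
Summed TPM of the Nxf genes (left) and of the Nxt genes (right) in each library, with 1 colour for each gene and both axes from 0. In AZ20 Nxf2 fills 88.7% and 88% of the Nxf bars, while Nxt1 still fills most of each Nxt bar.

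Relatives of one family can share reads, so their coding sequences were compared. Nxf1 and Nxf2 were identical at 66.8% of aligned coding bases, Nxf2 and Nxf7 at 70.4%, and the other Nxf pairs between 63.2% and 65.6%. Nxt1 and Nxt2 were identical at 73.8%. The longest runs of bases shared by a pair are printed 5′ to 3′ from the coding sequences of GENCODE transcripts (GRCm38), to show how short the common stretches are.
Nxf1 and Nxf2, 23 bases: ctgaagctggaagagctgtggct
Nxf2 and Nxf7, 26 bases: gcaagatcccaaaggaattcttcaaa
Nxt1 and Nxt2, 23 bases: ttttttgagatgttgccttccag

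Reads were paired and 150 bases long. No window of 150 bases from the transcripts of any member occurred in a transcript of another gene, and for windows of 50 bases the shares were 0% for Nxf1, Nxf2 and Nxf3, 2.44% for Nxf7, 4.94% for Nxt1 and 0.676% for Nxt2. The Nxf2 reads in AZ20 can therefore be told from Nxf1 and Nxf7 by sequence.

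The wider export machinery was followed in a list of 58 genes that hand messengers to the Nxf and Nxt receptors or act beside them. Of these, 57 passed the filter. By limma 3 were called higher and none lower, beside 2.28% higher and 0.0485% lower over all genes tested. At an unadjusted limma p under 0.05 there were 6 higher and 0 lower, beside 8.03% higher and 1.13% lower over all genes tested. The 3 called genes, Thoc2, Cetn2 and Fmr1, were the X-linked genes of the list that had reads, beside the 63.3% of X-linked genes called, and none of the 54 autosomal genes was called. Luzp4, an X-linked relative of the adaptor UIF, was at 0 in every library. The median change of the 54 autosomal genes was 0.18 and that of all autosomal genes tested was 0.06, and the called share over all autosomal genes was 0.101% higher and 0.0504% lower.

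Thoc2, the scaffold of the THO part of TREX, lies at chrX:41794991-41920674. It was at 0 and 0.0228 TPM in Ctrl, from 0 and 2 reads, and at 6.96 and 4.68 TPM in AZ20. The groups did not overlap, and the change was 2.73 ± 0.32 (SE) with a limma adjusted p of 0.00433. The change of Thoc2 was 5.71 and 8.30 with pseudocounts of 0.1 and 0.01, and without the second Ctrl library its adjusted p was 0.06.

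Cetn2, a centrin that also sits in the TREX-2 complex at the pore, lies at chrX:72913532-72918411. It had no reads in Ctrl and 67.7 and 102 TPM in AZ20, at least 180-fold higher against 3 reads in each Ctrl library. Its change was 6.39 ± 0.28 (SE), with a limma adjusted p of 4.98e-05. Cetn3, the autosomal centrin of the list, had the lowest change of the TREX-2 group, -0.07.

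Fmr1, an RNA-binding protein counted here among the adaptors of NXF1 and best known for translational control, lies at chrX:68678541-68717963. It was at 0.0677 and 0.0789 TPM in Ctrl and at 38.6 and 38.5 TPM in AZ20. The change was 5.20 ± 0.24 (SE), with a limma adjusted p of 5.26e-05. Without the first AZ20 library the adjusted p of all 3 genes was 0.0902, and without the second it was 0.0791.

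The autosomal genes of the list moved little. In TREX, which joins export to transcription and splicing, the 14 autosomal genes tested had a median change of 0.13, and the lowest was Thoc6 at -0.37. The 7 autosomal SR proteins and other adaptors had a median of 0.30, with Srsf7, a shuttling splicing factor, highest at 0.70 (limma adjusted p = 0.15) and Rbm15b lowest at -0.00. The 5 cap-binding genes ran from Ncbp1 at -0.18 to Ncbp2, the subunit that holds the cap, at 0.72 (limma adjusted p = 0.366).

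Nuclear pore and messenger release factors, which the receptor meets last, had a median change of -0.00 over 12 genes, from Nup42 at -0.43 to Nup153, a basket nucleoporin, at 0.39. The exon junction complex, which marks spliced messengers, ran from Rbm8a at 0.14 to Magoh at 0.48, with a median of 0.35. Among the other transport receptors, Xpo1, the exportin for proteins and some RNAs, was at -0.06, and Xpot, which carries transfer RNA, was at 0.40. The autosomal estimates of the list, from -0.43 to 0.72, stayed inside a 2-fold change. Some of their 95% intervals reached beyond it, among them 0.17 to 1.27 for Ncbp2, 0.30 to 1.11 for Srsf7 and -1.05 to 0.20 for Nup42.

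**Figure D3:**
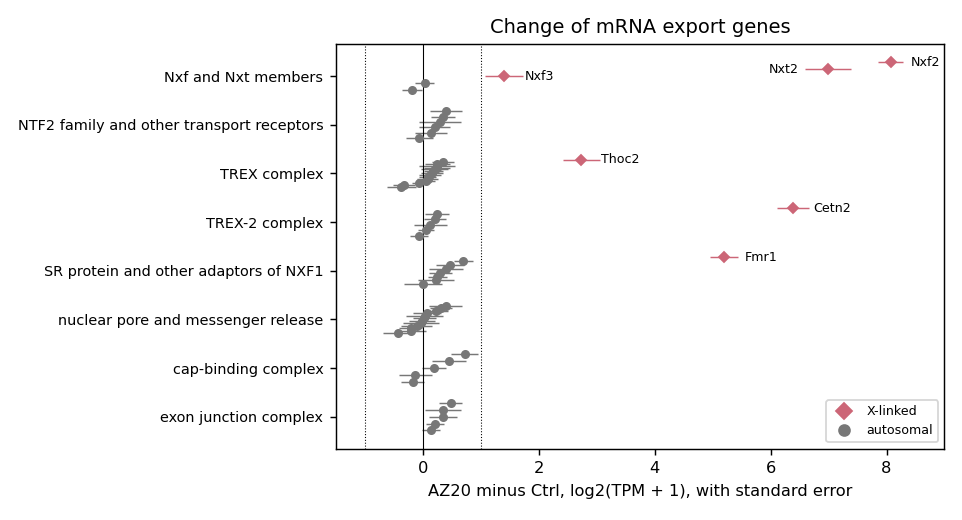
AZ20 minus Ctrl on the log2(TPM + 1) scale for the members and for the 57 tested genes of the export list, in 8 rows by complex. Points are genes, bars the standard error, red diamonds X-linked and grey circles autosomal genes, and dotted lines mark a 2-fold change; the named X-linked genes lie to the right of the dotted line and no autosomal gene passes it.

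The genes around the X-linked members were then examined. Of 8 other genes that start within 250 kb of the Nxf2 start, 2 passed the filter. Of these 1 was called, beside 63.3% of all X-linked genes tested. Armcx2 was called (0 and 0 TPM in Ctrl, 3.48 and 2.78 TPM in AZ20, limma adjusted p = 0.0195), and Armcx1 had a change of 1.51 (limma adjusted p = 0.187). Zmat1, the closest at 44.5 kb, was at 0 in Ctrl and at 0.982 and 0.631 TPM in AZ20, and 3 neighbours were at 0 in every library. The high Nxf2 level hence stood beside neighbours that were low or had no uniquely aligned reads.

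Around Nxt2, none of the 4 neighbours, Gucy2f, Gm5643, Kcne1l and Acsl4, passed the filter. The highest value among them was 0.896 TPM, for Kcne1l in the second AZ20 library. Nxt2 was at 193 and 228 TPM in the same cells.

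Of 11 neighbours of Nxf7, 7 passed the filter and 5 were called higher, beside 63.3% of all X-linked genes tested, among them Prame at 5.64 and 1700008I05Rik at 5.18, while Nxf7 itself stayed near 0. The other called neighbours were Armcx5 (2.61), Tmsb15a (2.39) and Bhlhb9 (1.85), and Gprasp1 (1.62) and Mir1970 (1.55) were not called. Mir1970, which lies inside the span of Gprasp1, rested on few recovered reads, 1 and 0 in Ctrl and 5 and 2 in AZ20. Armcx5 and Gprasp1 have the same listed start, so how reads that overlap both genes were counted is uncertain.

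Near Nxf3, 5 of 12 neighbours passed the filter and 1 of these, Wbp5, was called, beside 63.3% of all X-linked genes tested. Wbp5 had 0.584 and 0 TPM in Ctrl and 79.2 and 70.3 TPM in AZ20 (limma adjusted p = 6.35e-05). Bex2 (0.80), Bex4 (0.87), Tceal8 (1.03) and Ngfrap1 (1.37) were not called, and Ngfrap1 rested on 1 and 2 recovered reads in AZ20. Thus levels in AZ20 varied widely between genes of 1 stretch of the X chromosome.

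**Figure D4:**
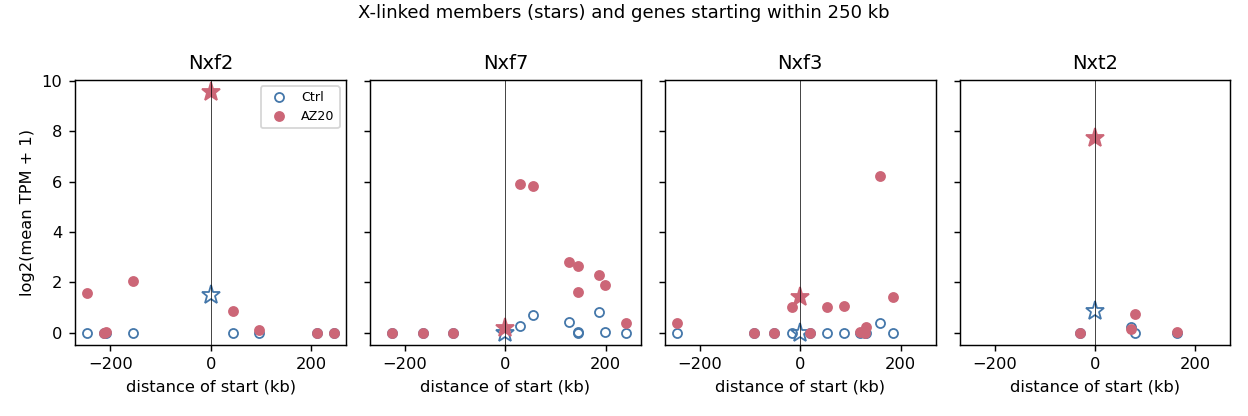
Mean level, as log2(mean TPM + 1), of each X-linked member (stars) and of the genes that start within 250 kb, against the distance of their start in kb along the chromosome. Open blue symbols are Ctrl and filled red symbols AZ20; Nxf2 and Nxt2 stand above every neighbour in AZ20, whereas Nxf7 and Nxf3 lie below at least 1 of theirs.

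Genes with the most similar levels were found by the Euclidean distance of log2(TPM + 1) over the 4 libraries, which ranks by level as well as by change. The nearest to Nxf2 were 1700013H16Rik (distance 1.80), Gm9 (1.83) and Fam122c (2.01), all X-linked. None came close, and 1700013H16Rik, the nearest, was at 463 and 393 TPM in AZ20. The nearest to Nxt2 were Pbdc1 (1.02), Prps1 (1.14), a nucleotide synthesis enzyme, and Vbp1 (1.29), again all X-linked.

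Both general factors had closer relatives in level. Nxf1 lay nearest to Yipf5 (0.14), Wdr74 (0.19) and Spag16 (0.19), and Nxt1 to Fkbp1a (0.08), Itgb1bp1 (0.11) and 2700060E02Rik (0.12), all of them autosomal. With 4 libraries these distances describe the profiles and test nothing.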

How the data were processed

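RNA-seq libraries of FACS-isolated pachytene spermatocytes were made with a low-input kit and sequenced as paired reads of 150 bases. The culture temperature is 34 °C in the labels and 32 °C in the methods of the study, and labels and methods name different HiSeq instruments. Per the submitters' processing notes and the methods, the authors used Trimmomatic 0.39 for trimming, STAR 2.5.4b for unique alignment to GRCm38 and featureCounts 2.0.1 with UCSC refGene for counting, and the deposited values are TPM per library. The table holds TPM and not counts, so limma on TPM took the place of the study's test of counts. The authors' filter on low values and thresholds were kept.

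Log2(TPM + 1) was fitted with limma 3.58.1 (R 4.3.3) and a variance trend on intensity, over the 10316 genes whose mean TPM exceeded 1 in a condition, and tested two-sided. Fold changes are on this scale and understate the change of low genes. The test was tested on simulated data. Whole reads were recovered for 16847 of 16857 genes above 0 (99.9%) from the ratios of their TPM, as the fewest whole numbers, so a common factor may be missed, and were fitted with voom as an alternative. The 92 blank lines, all at 0, were left out. Chromosomes came from GENCODE for 21777 symbols and from RefSeq for 211 symbols and 1295 synonyms, and 137 were not placed. Promoters came from RefSeq (GRCm38.p6). Sequences and sums were handled in Python 3.11.15 with pandas 2.3.3, numpy 2.4.6, scipy 1.17.1 and Biopython 1.88.

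Named genes were the members, export genes that were called, X-linked or at either end of their group, the 3 nearest profiles of Nxf1, Nxf2, Nxt1 and Nxt2, and neighbours within 250 kb. Any further gene was singled out with its values in view. The members and lists were chosen with earlier results of these data known. Replicate numbers pair the libraries, since per the methods each mouse gave cells to both conditions, and the deviations of same-numbered libraries from their group means correlated (0.229 over the genes tested, 0.231 over autosomal genes). The p-values rest on the spread between 2 libraries a group, with each variance drawn toward a trend over all genes tested. The main fit took the libraries as independent and did not use the pairing. Alternatives were other pseudocounts (0.1 and 0.01), filters, scalings and models, the replicate block, and leaving out each library.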

Additional observations from a re-analysis of the deposited data

How the results depend on the processing

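Nxf2, Nxf3 and Nxt2 had a positive change and Nxf1 a negative one under every alternative in which they could be fitted, while the sign of Nxt1 turned. The change of Nxf2, 8.07, was 8.63 and 8.70 with pseudocounts of 0.1 and 0.01, 8.68 with voom on the recovered reads and 8.66 with voom and the replicate block. That of Nxt2, 6.99, was 8.59, 9.14, 8.96 and 8.22 in the same order, since its Ctrl level rests on few reads. Changes of genes with few or no Ctrl reads moved more: with a pseudocount of 0.01 Nxf3 was at 7.37, Thoc2 at 8.30, Cetn2 at 13.02 and Fmr1 at 8.86, and with voom they were at 6.71, 8.67, 10.02 and 8.82. Nxf3 was called without the intensity trend, with the replicate block and with voom with or without the block. With the replicate block 424 genes were called higher and 23 lower, in place of 235 and 5, while Cetn2, Fmr1 and Thoc2 remained the called genes of the export list. The count called lower was 1 without the filter on low values and 1 with voom. Leaving out 1 library gave 0 to 184 genes higher, 0 to 1 lower and 0 to 3 export genes higher, and the counts of 0 higher came from leaving out either AZ20 library. Among the export genes, Thoc2 was lost without the second Ctrl library. Quantile normalization moved the median change of all genes from 0.072 to -0.071, and Nxf2 was then at 7.95 and Nxt2 at 6.73. The ratio of summed Nxf levels was 7.6 with a common autosomal total, and 7.08 to 8.05 with 1 library left out. That of summed Nxt levels was 1.53 with a common autosomal total, and 1.39 to 1.67 with 1 library left out. Leaving out a library shows only the spread between libraries. Depth limits the Ctrl levels of Nxf2, Nxt2 and Nxf3.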
